A study of Mus musculus with 57 samples.

Results

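Imprinted genes are read mainly from the copy inherited from 1 parent, and 36 of them, matched by symbol, were followed among the 56557 genes measured in single mouse embryos. They comprise 12 genes usually read from the maternal copy, 23 usually read from the paternal copy, and Gnas, a complex locus with transcripts of both kinds. RNA sequencing covered 57 libraries of 3 lines with alleles of Taf5, Taf12 or Taf13, which encode subunits of the general transcription factor TFIID (Taf12 is shared with the coactivator SAGA). The labels give the genotype as MUT, HET or WT and do not describe the alleles, so what the mutants lack is not stated. Taf5 blastocysts at embryonic day 3.5 (E3.5) were MUT (n = 4) or WT (n = 3). Taf12 blastocysts were MUT (n = 3), HET (n = 5) or WT (n = 5). Taf12 outgrowths (OG), which are E3.5 blastocysts kept for 72 h in serum-containing medium, were MUT (n = 4), HET (n = 3) or WT (n = 4). Taf13 blastocysts were MUT (n = 3), HET (n = 4) or WT (n = 4), and Taf13 embryos at E6.5 were MUT (n = 2), HET (n = 9) or WT (n = 4). Each library is 1 embryo, and separate litters are not stated, so a p-value here reflects only how far these embryos spread, part of which may be technical.

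Most imprinted genes lie in clusters, in which a control region methylated on 1 parental copy sets which neighbours are read. Many of the maternally read genes restrain growth of the fetus or placenta and several of the paternally read ones promote it. In the mouse, some members (Sfmbt2, Gab1, Slc38a4) are imprinted mainly in extraembryonic tissue. The reads were not split by parental copy here, so every value is a total level and says nothing about which copy was read. In bulk RNA of an embryo, fewer cells of a type and less RNA per cell cannot be told apart.

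TFIID binds core promoters, among whose elements is the TATA box. Shown are promoters of the 3 members with sense-strand TATAAA near the start, Phlda2, Dio3 and Meg3, and of Mest and Peg3, without it. Meg3 was not called in any comparison with WT, and other called members are not shown. The sequences are the 60 bases before the RefSeq start (build GRCm38.p6, the strand given), with TATAAA in capitals where present.
Phlda2 (chr7:143502525-143502584, minus strand): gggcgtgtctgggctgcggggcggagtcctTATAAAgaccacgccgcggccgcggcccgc
Dio3 (chr12:110279170-110279229, plus strand): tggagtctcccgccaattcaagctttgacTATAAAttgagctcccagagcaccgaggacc
Meg3 (chr12:109540936-109540995, plus strand): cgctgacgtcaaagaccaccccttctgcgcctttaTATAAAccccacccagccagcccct
Mest, 1 of its listed starts (chr6:30737990-30738049, plus strand): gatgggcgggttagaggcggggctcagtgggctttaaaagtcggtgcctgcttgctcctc
Peg3 (chr7:6730420-6730479, minus strand): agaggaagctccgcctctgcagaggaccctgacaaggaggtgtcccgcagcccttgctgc
RefSeq promoters matched 30 members, with 50 starts in all. H19, Cdkn1c, Peg10, Sgce, Rtl1 and Impact had no entry. TATAAA on the sense strand between positions -45 and -6 was found at 3 of the 50 member starts, those of Phlda2, Dio3 and Meg3, and at 2.31% of the 32851 promoters in the table. On either strand a Gnas start joined them, against 3.08% of all promoters. A narrower window of -40 to -15, tried after the matches were seen, held the same members against 1.99% of promoters on the sense strand and 2.5% on either. A match is a description of letters, not a binding site.

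Recovered reads ran from 4.55 to 21.59 M per library (M for mega), deepest at E6.5. Taf5 was at 0 in every Taf5 MUT library. Taf12 was not lower in the libraries labelled Taf12 MUT, with 52.89 ± 0.82 FPKM (fragments per kilobase and M reads) in MUT outgrowths against 23.2 ± 3.7 in WT (SD, n = 4 each). Taf13 averaged 30.7 ± 5.05 FPKM in E6.5 MUT (n = 2) and 32.4 ± 10.3 in WT (SD, n = 4). Transcript level therefore does not check the Taf12 and Taf13 labels, and the directions below rest on those labels. At E6.5 the 11 markers of the maternal decidua summed to 1101 and 1845 reads per M in MUT, against 13.67 to 691.4 in HET and 48.35 to 1241 in WT. All 11 were above 0 in both MUT libraries and in HET 6, HET 8 and WT 3, and 6 to 10 were in the other controls. The same sum was 21.56 to 168.7 reads per M in blastocysts, with 1 to 3 markers above 0. In Taf12 MUT outgrowths it was 175.4 to 241.6, nearly all from Cryab. Low sums at E6.5 are therefore not clear evidence of maternal tissue.

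**Figure D1:**
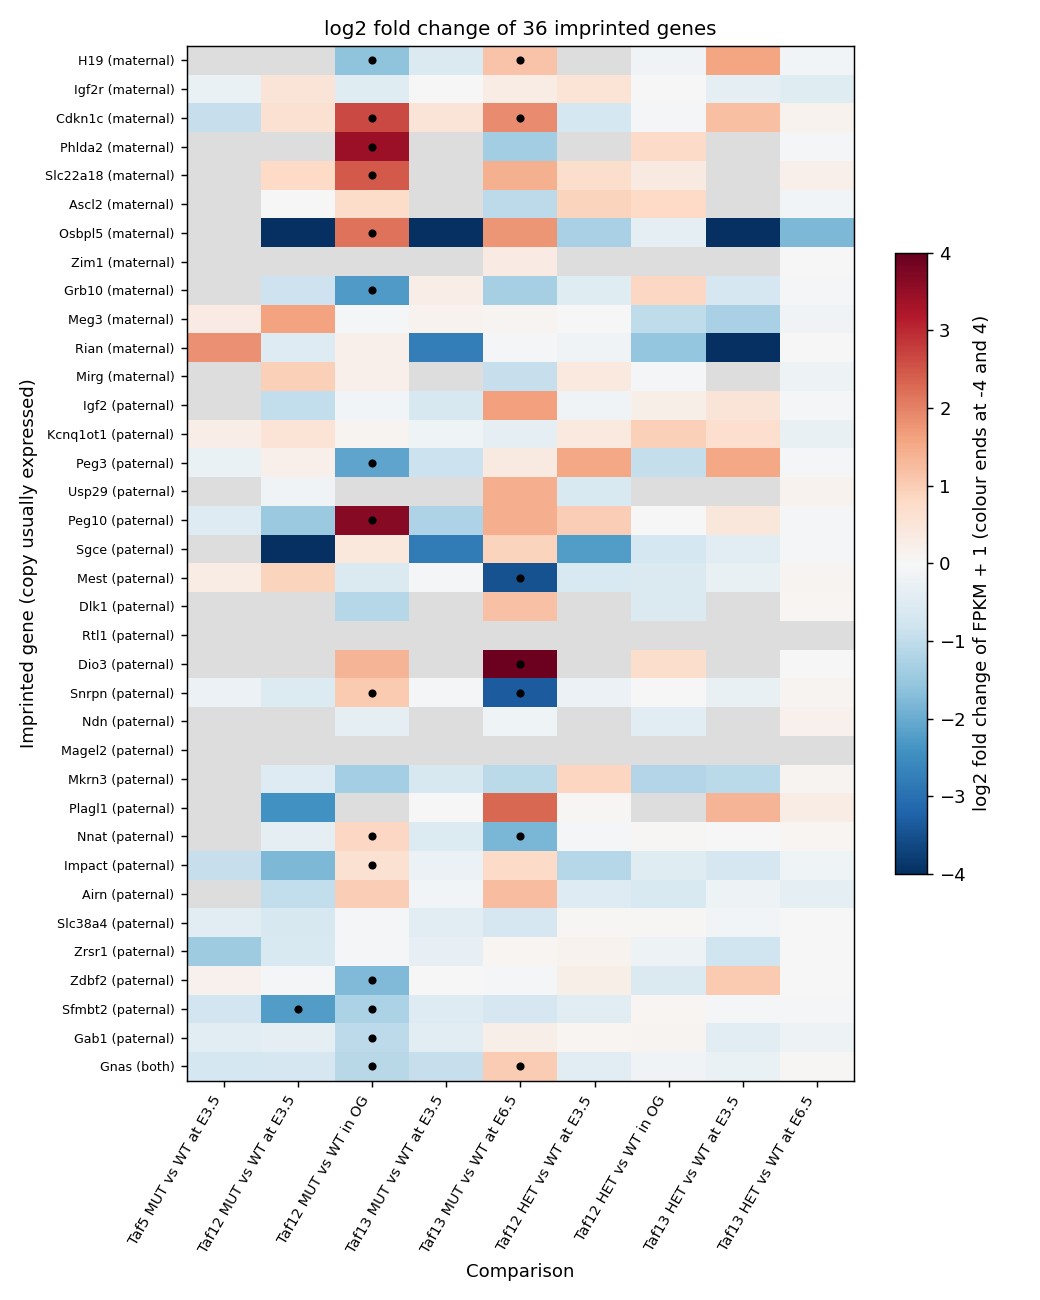
log2 fold change of FPKM + 1 for each of the 36 imprinted genes (rows, with the copy usually read) in 9 comparisons with WT (columns). Dots mark an adjusted p under 0.05 and grey cells were not tested. Calls lie in Taf12 MUT outgrowths (15), Taf13 MUT at E6.5 (7) and Taf12 MUT at E3.5 (1).

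In Taf12 MUT outgrowths, 15 of 31 tested members changed against WT, 8 rising and 7 falling. Of all genes tested, 37.9% were called in this comparison (18% higher and 19.9% lower), so many genes moved with them. The median log2 fold change was -0.05 over the tested members and -0.05 over all genes. The maternally read members gave 4 that rose and 2 that fell among 11 tested. The paternally read members gave 4 that rose and 4 that fell among 19 tested, and Gnas fell. Calls are by limma with Benjamini-Hochberg adjusted p under 0.05.

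The genes that rose included 4 of the maternally read group beside Kcnq1ot1 on chromosome 7, the cluster with the placental growth restrainer Phlda2 and the cell cycle inhibitor Cdkn1c. Phlda2 had 898, 834, 1417 and 1243 FPKM in MUT outgrowths, 183, 263 and 101 in HET, and 117, 86.3, 125 and 80.0 in WT. Every MUT library was above every HET and WT library, and Phlda2 was 10.8-fold higher than in WT (log2 3.41 ± 0.29 SE, limma adjusted p = 2.64e-05). Cdkn1c had 3786, 1838, 4466 and 1751 FPKM in MUT, 473, 736 and 224 in HET, and 736, 323, 286 and 544 in WT (log2 2.63 ± 0.45, limma adjusted p = 0.0013). Osbpl5, a lipid-transfer protein gene, had 712, 559, 679 and 890 FPKM in MUT, 145, 96.9 and 125 in HET, and 150, 138, 180 and 153 in WT (log2 2.17 ± 0.17, limma adjusted p = 1.48e-05). For both genes the MUT libraries lay above all others. Slc22a18, an organic cation transporter-like gene, had 36.5, 16.6, 40.6 and 30.97 FPKM in MUT, 9.02, 14.8 and 1.31 in HET, and 16.1, 0, 9.19 and 4.72 in WT (log2 2.44 ± 0.84, limma adjusted p = 0.042). That call was lost when any of 6 single libraries was left out (MUT 1, 3 and 4, HET 1, WT 2 and 4, limma adjusted p 0.057 to 0.088). In the same cluster, the paternally read noncoding RNA Kcnq1ot1 (log2 0.12, adjusted p = 0.63) and the trophoblast regulator Ascl2 (0.74, adjusted p = 0.28) were not called.

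Among paternally read genes, Peg10, a retrotransposon-derived gene needed for the placenta in the mouse, had 10430, 5706, 9648 and 7255 FPKM in MUT outgrowths, 670, 1223 and 339 in HET, and 867, 406, 752 and 673 in WT. MUT lay above all HET and WT libraries, 12.2-fold higher than WT (log2 3.63 ± 0.37, limma adjusted p = 7.47e-05). Its divergent neighbour Sgce was not called (log2 0.42, adjusted p = 0.31). Snrpn, which encodes a splicing ribonucleoprotein component, had 225, 284, 221 and 294 FPKM in MUT, 110, 131 and 125 in HET, and 151, 157, 122 and 74.5 in WT (log2 1.06 ± 0.22, limma adjusted p = 0.0038). Nnat rose by a log2 of 0.84 (adjusted p = 0.020), with 0.887 to 2.59 FPKM in MUT and 0.351 to 0.624 in WT. It passed the filter on low values only through MUT, and without MUT 1, 2 or 3 it failed the filter and was not tested. Without WT 3 its limma adjusted p was 0.051. Impact rose by 0.59 (adjusted p = 0.042), with MUT at 523 to 763 FPKM and WT at 337 to 485, and that call was lost without any of MUT 1, 2 or 3 or WT 1, 3 or 4 (limma adjusted p 0.053 to 0.104).

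The genes that fell included H19, a maternally read noncoding RNA that restrains growth, and Peg3 and Grb10. H19 had 1342, 443, 1215 and 1196 FPKM in MUT, 3291, 2526 and 2333 in HET, and 3024, 2942, 2633 and 3206 in WT. It was 2.81-fold lower in MUT (log2 -1.61 ± 0.30, limma adjusted p = 0.0023), while Igf2, its paternally read neighbour, was not called (-0.11, adjusted p = 0.83). Peg3, a zinc finger gene, had 38.95, 14.3, 29.9 and 44.8 FPKM in MUT, 89.2, 56.8 and 57.6 in HET, and 109, 131, 124 and 159 in WT (log2 -2.10 ± 0.31, limma adjusted p = 6.09e-04). Grb10, an adaptor that dampens insulin signalling, had 56.5, 82.7, 22.7 and 42.5 FPKM in MUT, 405, 375 and 421 in HET, and 185, 293, 305 and 158 in WT (log2 -2.27 ± 0.35, limma adjusted p = 7.16e-04). In each of these genes every MUT library lay below every HET and WT library. Sfmbt2, a Polycomb-related gene, fell by 1.26, Gab1, a signalling adaptor, by 1.06, Gnas by 1.10 and Zdbf2 by 1.77 on the log2 scale (limma adjusted p 4.35e-04 to 0.0080). The other members tested in outgrowths, among them Mest, Meg3, Rian, Dlk1, Slc38a4, Airn and Igf2r, were not called.

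**Figure D2:**
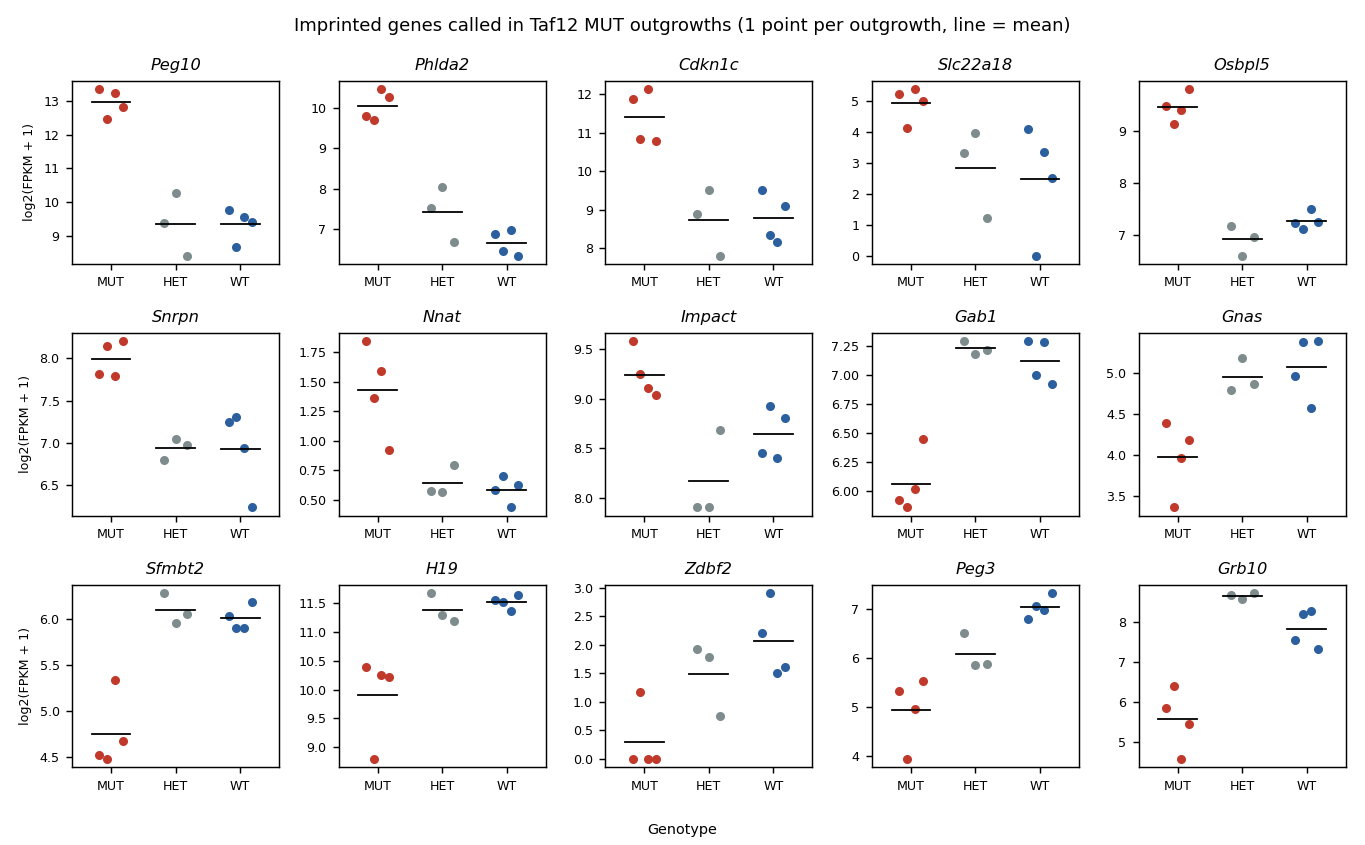
log2(FPKM + 1) of the 15 called members in Taf12 MUT, HET and WT outgrowths (1 point per outgrowth, line at the mean, axes differ between panels). MUT points do not overlap WT points in any of the panels, which were chosen by calls on these same values.

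Cell type markers moved in the same libraries. Epiblast markers summed to 54.84 to 139.4 reads per M in MUT outgrowths, against 240.2 to 293.5 in HET and 291.1 to 434.6 in WT. Of the 8 markers, 4 were tested and 2 fell. Most of these reads were of Utf1 (288 to 817 in MUT, 2386 to 2959 in WT) and Klf2. Pou5f1 had 0, 106, 4 and 60 reads in MUT and 2, 79, 21 and 0 in WT. Primitive endoderm markers summed to 98.41 to 976.6 in MUT, 161.5 to 396.8 in HET and 366.2 to 1622 in WT, and 5 of 9 tested fell. Trophoblast markers summed to 37950 to 53940 in MUT, 34680 to 39750 in HET and 32430 to 45610 in WT, with 5 of 10 higher and Prl3d1, a giant cell hormone gene, lower. These sums join opposite shifts. Prl3d1, most of the sum in HET and WT, had 50693 to 158300 reads in MUT and 207788 to 337679 in WT. Krt8 had 101484 to 248266 in MUT and 19570 to 56358 in WT. The part of these cell type markers in the changes of imprinted genes was not tested. Of 14 genes that maintain imprints, 1 rose and 5 fell, where 37.9% of all genes were called (18% higher and 19.9% lower). Dppa3, an oocyte and blastocyst factor that shields methylation, averaged 32.48 ± 38.3 FPKM in MUT and 0.604 ± 1.21 in WT (SD, n = 4 each, log2 3.85, limma adjusted p = 0.0030). Uhrf1, which brings the maintenance methyltransferase to DNA, averaged 184 ± 48.2 FPKM in MUT and 329 ± 31.6 in WT (log2 -0.87, limma adjusted p = 0.0035). Dnmt1, that methyltransferase, fell by 0.90 (adjusted p = 0.025). Of 24 further imprinted genes, 16 were tested, 3 rose and 1 fell, beside the same 37.9% of all genes. Tfpi2, a protease inhibitor gene of the Peg10 region, averaged 6.28 ± 12.1 FPKM in MUT and 641 ± 258 in WT (SD, n = 4 each, log2 -7.88, limma adjusted p = 1.21e-04), and Jade1 rose by 0.94 (adjusted p = 5.21e-04).

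In Taf13 MUT embryos at E6.5, 7 of 34 tested members changed, 4 rising and 3 falling, where 13% of all genes were called (6.64% higher and 6.4% lower). Only 2 MUT embryos were sequenced, and the fit assumes that they vary like the other groups. The median log2 fold change was 0.27 over the members and 0.03 over all genes. Maternally read members gave 2 that rose and 0 that fell of 12 tested. Paternally read members gave 1 that rose and 3 that fell of 21 tested, and Gnas rose.

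Mest, a paternally read hydrolase-like gene of mesoderm, had 186 and 639 FPKM in MUT. HET embryos had a lowest value of 3213, a median of 4199 and a highest of 4908, and WT embryos had 3683, 3598, 3304 and 5123. Both MUT embryos lay far below the rest, 9.51-fold below WT on average (log2 -3.48 ± 0.34, limma adjusted p = 2.08e-05). Snrpn had 12.5 and 89.4 FPKM in MUT, 212, 391 and 478 as the HET lowest, median and highest, and 330, 436, 305 and 346 in WT (log2 -3.33 ± 0.50, limma adjusted p = 7.43e-04). Nnat had 1.27 and 0.786 FPKM in MUT, 2.48, 6.90 and 10.3 as the HET lowest, median and highest, and 5.47, 8.16, 4.70 and 6.61 in WT (log2 -1.82 ± 0.36, limma adjusted p = 0.0046).

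Cdkn1c had 144 and 184 FPKM in MUT, 32.5, 46.7 and 84.9 as the HET lowest, median and highest, and 48.3, 33.3, 56.5 and 36.9 in WT (log2 1.90 ± 0.34, limma adjusted p = 0.0025). Dio3, which inactivates thyroid hormone, had 19.3 and 41.5 FPKM in MUT, 0, 0.887 and 5.01 as the HET lowest, median and highest, and 0.592, 0.279, 4.35 and 0.327 in WT (log2 3.91 ± 0.71, limma adjusted p = 0.0027). Both lay above every HET and WT embryo. Gnas, which encodes a signalling G protein subunit, had 52.6 and 36.4 FPKM in MUT, 13.3, 22.4 and 26 as the HET lowest, median and highest, and 23.6, 20.2, 18.8 and 21.8 in WT (log2 1.02 ± 0.25, limma adjusted p = 0.014, 0.22 without MUT 1). H19 had 250 and 267 FPKM in MUT, 76.5, 112 and 176 as the HET lowest, median and highest, and 148, 79.0, 83.0 and 187 in WT (log2 1.15 ± 0.35, limma adjusted p = 0.045). That call was lost when MUT 1, MUT 2, WT 2 or WT 3 was left out (limma adjusted p 0.084 to 0.217).

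Several members came close to the threshold. Igf2, the fetal growth factor, had 48.6 and 53.96 FPKM in MUT and 26.6, 11.3, 8.23 and 24.1 in WT (log2 1.64, adjusted p = 0.051). Peg10 had 2050 and 1185 FPKM in MUT and 891, 527, 256 and 834 in WT (1.47, adjusted p = 0.050). The zinc finger gene Plagl1 (2.30, adjusted p = 0.054) and Sgce (0.88, adjusted p = 0.060) were also not called. Grb10 was lower, at 50.7 and 86.2 FPKM in MUT and 259, 159, 71.7 and 273 in WT, and was not called (log2 -1.34, limma adjusted p = 0.111). WT 3 lay between the MUT values. The 2 MUT embryos differed from each other in Phlda2, at 12.5 and 145 FPKM, Ascl2, at 5.54 and 415, and Slc38a4, an amino acid transporter, at 151 and 1663. Against WT these had log2 values of -1.38, -1.04 and -0.67, and none was called. Some trophoblast markers differed between the same 2 MUT embryos. Reads were 398 and 9450 of Tfap2c, 63 and 1418 of Elf5, and 127 and 1030 of Hand1. Others of the list differed less, with 12198 and 24238 reads of Krt8 and 175 and 179 of Eomes. Cdx2 went the other way, with 1064 and 702. The part of the trophoblast markers in these members was not tested.

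**Figure D3:**
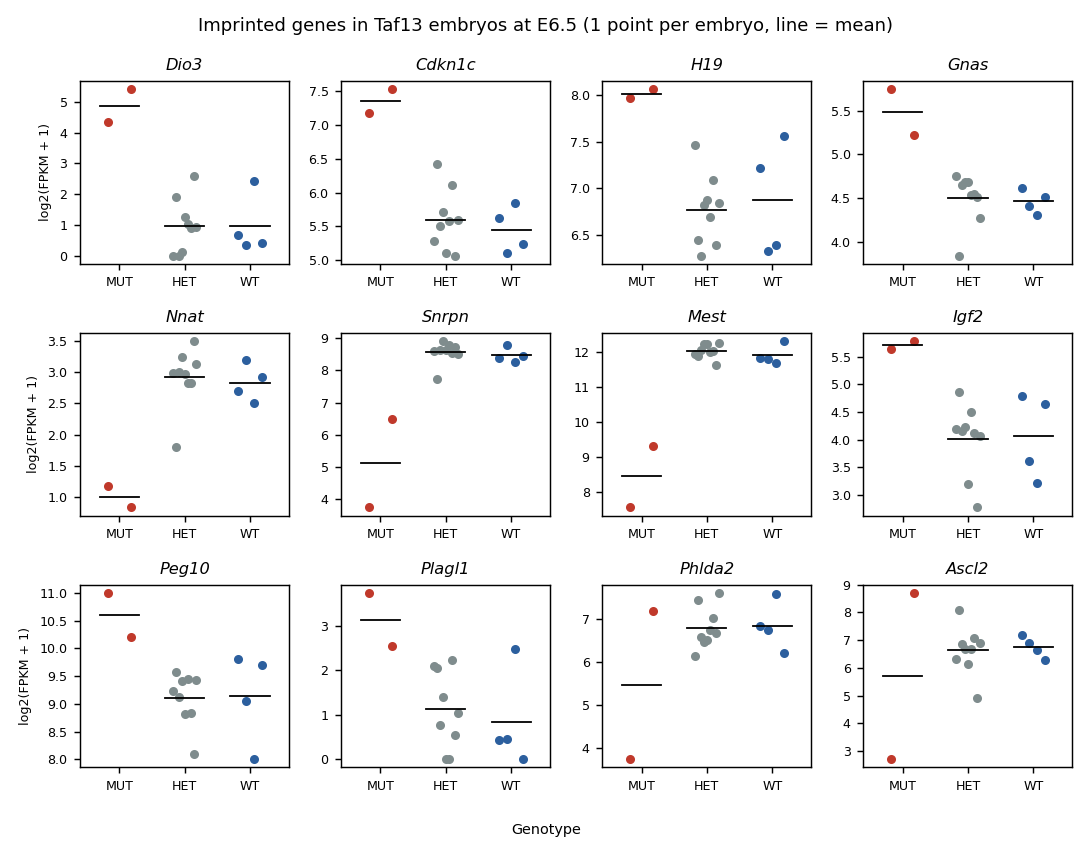
log2(FPKM + 1) of the 7 called members and of Igf2, Peg10, Plagl1, Phlda2 and Ascl2, which were not called, in Taf13 MUT, HET and WT embryos at E6.5 (1 point per embryo, line at the mean, axes differ). Both MUT points lie outside the HET and WT points in the 7 called panels, which were chosen by calls on these same values.

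Maternal and embryonic markers moved with genotype at E6.5. Of 10 tested decidual markers, 6 rose in MUT. Epiblast markers summed to 24.22 and 181.8 reads per M in MUT, against 758.6 to 1357 in HET and 841.6 to 1463 in WT, and Pou5f1 was at 0 in both MUT embryos. Primitive endoderm markers summed to 7186 and 4861 reads per M in MUT, 3682 to 5670 in HET and 3736 to 6820 in WT, with 3 of 10 (Sox17, Pdgfra and Amn) higher. Trophoblast markers summed to 1665 and 3530 in MUT, 1127 to 3121 in HET and 1844 to 2572 in WT, with 2 of 10 (Elf5 and Eomes) lower. The 2 adult haemoglobin genes, markers of maternal blood, summed to 101.3 and 214.9 in MUT, 0.048 to 95.29 in HET and 2.241 to 76.47 in WT. Mitochondrial reads took 1.118 and 0.38% in MUT, 0.099 to 0.502% in HET and 0.108 to 0.529% in WT. Their part in the changes of imprinted genes at E6.5 was not tested. WT 3, whose decidual sum of 1241 lay between those of the MUT embryos, had 3304 FPKM of Mest, 305 of Snrpn, 56.5 of Cdkn1c and 4.35 of Dio3. Of its 25993 decidual reads, 17350 were of Prl8a2, and each other decidual marker had fewer reads than in either MUT embryo. Hoxa10 had 535 reads in WT 3 and 2275 and 2077 in MUT, and Des had 1527 against 5523 and 5022. Without WT 3 and HET 8, the controls richest in decidual reads, Mest (log2 -3.56), Snrpn (-3.40), Cdkn1c (2.03), Dio3 (4.40), Nnat (-1.93) and Gnas (0.97) were called, H19 was not (limma adjusted p = 0.070), and 11 members were called in all, beside 2576 of 14040 genes. With decidual reads as a covariate, 13 members were called beside 4645 of 14417 genes, against 1880 without it. The log2 change of Dio3 was then 2.55, and all 7 were called. Neither fit can separate genotype from decidual reads, since apart from WT 3 and HET 8 the highest control sum was 286.5 reads per M. Of the 14 genes that maintain imprints, Hells (log2 -0.74) and Eed (-0.81) fell (limma adjusted p 0.0151 and 0.041) and none rose. In the fit as reported, 13% of all genes were called (6.64% higher and 6.4% lower). Of 21 tested among the 24 further imprinted genes, Gatm (4.29) and Tspan32 (1.38) rose and Snhg14 (-3.48) and Asb4 (-2.09) fell (limma adjusted p 0.0024 to 0.021). Snhg14 is the long noncoding RNA that runs on from the Snrpn locus.

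Among the 13 HET and WT embryos at E6.5, 16 relations of members with each other or with the decidual sum were computed. By Pearson's r, 8 passed an adjusted permutation p of 0.05, but by Spearman's rho only 1 did. Grb10 fell as decidual reads rose (r = -0.87, permutation p = 1.7e-04, adjusted 0.0027; rho = -0.84, permutation p = 6.4e-04, adjusted 0.010). Without WT 3 and HET 8 its r was -0.69 (adjusted permutation p = 0.124). Each relation was repeated without the 2 embryos farthest from the median of its own x measure, WT 3 and HET 8 for the decidual sum and other pairs for the neighbours, and none of the 16 then passed. Peg3 (r = -0.81), Dlk1 (-0.77), Peg10 (-0.71) and Igf2 (-0.66) had values of -0.54, -0.28, -0.08 and -0.24 without those embryos, so the last 3 rest on them. Phlda2 had r = 0.65 (rho 0.66) and 0.74 without them. Between neighbours, Peg3 with Usp29 gave r = 0.74 (adjusted permutation p = 0.016; rho = 0.62, adjusted 0.091) and Meg3 with Mirg gave 0.62 (adjusted permutation p = 0.034; rho = 0.66, adjusted 0.067). H19 with Igf2 gave r = 0.44 (adjusted permutation p = 0.190) and rho = 0.38 (adjusted permutation p = 0.315).

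**Figure D4:**
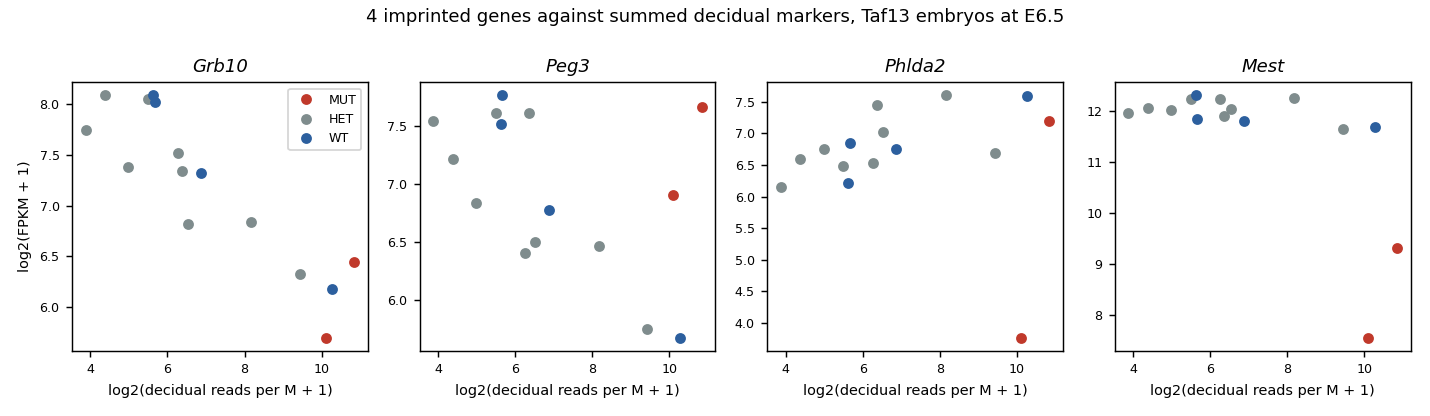
log2(FPKM + 1) of Grb10, Peg3, Phlda2 and Mest against log2 of the summed decidual reads per M + 1, 1 point per Taf13 embryo at E6.5 (MUT, HET, WT). Across HET and WT, Grb10 (r = -0.87) and Peg3 (r = -0.81) were lower in embryos with more decidual reads, and both MUT embryos lay below the others in Mest.

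In blastocysts few members were called. Taf5 MUT blastocysts had 0 of 16 tested members called (0.111% of all genes called, 0.0369% higher and 0.0738% lower). At an unadjusted p under 0.05 were 1 member, Zrsr1 (log2 -1.42, limma adjusted p = 0.58), and 882 of 10843 genes. Limma-voom on recovered reads called 0. Slc38a4 had 1332, 1244, 1648 and 1885 FPKM in MUT and 1627, 2348 and 2231 in WT. Taf12 MUT blastocysts had 1 of 28 tested members called (1.44% of all genes, 0.502% higher and 0.941% lower), Sfmbt2. It had 2.15, 1.05 and 5.92 FPKM in MUT, 16.4, 13.8, 4.95, 11.97 and 12.02 in HET, and 21.1, 13.8, 8.92, 19.3 and 18.2 in WT (log2 -2.23 ± 0.45, limma adjusted p = 0.032). MUT did not overlap WT, and HET 3 lay inside the MUT range. The call was lost without MUT 1, MUT 2, WT 1, WT 2, WT 4 or WT 5 (limma adjusted p 0.064 to 0.096). In the same libraries epiblast markers summed to 315, 717.5 and 563.5 reads per M in MUT, against 1009 to 1345 in HET and 879 to 1643 in WT, and 2 of 7 tested fell. MUT 1 had 3.586% mitochondrial reads and 11875 genes above 0, against 14196 and 14612 in the other MUT, 14317 to 15911 in HET and 13762 to 15904 in WT. Their part in the change of Sfmbt2 was not tested.

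Sgce was at 0 in all 3 Taf12 MUT blastocysts, where HET had 46.8, 0, 10.15, 0 and 45.7 FPKM and WT had 45.8, 65.2, 0, 87.8 and 198. Against a floor of 3 reads per library it was at least 22.1-fold below the WT mean, with WT 3 also at 0. That mean varied widely (79.3 ± 73.6 FPKM, SD, n = 5), and the limma adjusted p was 0.154. Meg3, the maternally read noncoding RNA of the Dlk1 cluster, had 15.4, 13.5 and 9.44 FPKM in MUT and 1.38, 1.86, 2.91, 10.4 and 4.69 in WT (log2 1.61, adjusted p = 0.106). Neither was called, and many members sat at 0 in some libraries of each genotype at this stage.

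Taf13 MUT blastocysts had 0 of 25 tested members called (0.134% of all genes, 0.0251% higher and 0.109% lower), and 0 by limma-voom. At an unadjusted p under 0.05 were 3 members, beside 1118 of 11975 genes. Osbpl5 was at 0 in all 3 MUT libraries, at 0, 0, 9.86 and 0 FPKM in HET, and at 7.63, 95.2, 42.7 and 27.9 in WT. Against the floor of 3 reads per library it was at least 14.9-fold below the WT mean of 43.38 ± 37.45 FPKM (SD, n = 4). Its limma adjusted p was 0.136, and 0.032 without HET 3. Rian had 8.34, 0 and 2.74 FPKM in MUT, 0, 0, 0 and 1.41 in HET, and 7.67, 20.6, 29.3 and 41.8 in WT (adjusted p = 0.34). Gnas had 8.86, 7.03 and 3.74 FPKM in MUT and 15.1, 10.7, 15.2 and 10.7 in WT (adjusted p = 0.42).

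HET embryos had 0 members called in every set, with 0% of all genes called in Taf12 E3.5, Taf13 E3.5 and Taf13 E6.5, and 0.0306% in outgrowths (0.0153% higher and 0.0153% lower). Members at an unadjusted p under 0.05 numbered 1, 2, 1 and 4 in those sets, of 28, 25, 34 and 31 tested. Beside them were 447 of 12751, 519 of 11975, 174 of 14417 and 571 of 13068 genes. Limma-voom called 0 in each set. In outgrowths Kcnq1ot1 had 50.02, 38.8 and 36.96 FPKM in HET and 22.6, 23.98, 20.5 and 17.3 in WT (adjusted p = 0.28).

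Differences in the MUT effect between stages were tested as the difference of effects taken within separately normalized tables. In Taf12, 2 of 33 members were called (11% of all genes, 5.41% higher and 5.6% lower), Phlda2 and Snrpn. Snrpn had the more positive effect in outgrowths (log2 1.62, limma adjusted p = 0.0012). The value for Phlda2 (3.69, limma adjusted p = 2.49e-05) mostly restates the outgrowth effect, since Phlda2 failed the filter at E3.5, where it averaged 0.35 FPKM in MUT and 0.64 in WT. In Taf13, 4 of 34 were called (4.45% of all genes, 2.42% higher and 2.03% lower). Osbpl5 (6.76) and Gnas (1.96) had the more positive effect at E6.5, and Snrpn (-3.26) the more negative (limma adjusted p 0.0018 to 0.0070). Dio3, the other call, was at 0 in every MUT and WT blastocyst, so its value (3.91) restates the E6.5 effect and cannot show a difference between stages.

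Rtl1 and Magel2 were not tested in any comparison, and Zim1 was tested only in comparisons that included E6.5. In the authors' deposited table, which sets MUT against WT in Taf5 and against WT and HET together in the other lines, 8 members were higher and 8 lower in MUT outgrowths of 31, beside 3299 and 3372 of 16731 genes. At E6.5 the deposited table has 9 members higher and 4 lower of 36, beside 1778 and 2330 of 17514 genes. By those deposited values 1 member was higher and 4 lower in Taf12 blastocysts of 24, beside 431 and 863 of 13330 genes. The deposited table has 0 higher and 1 lower in Taf13 blastocysts of 25, beside 131 and 401 of 12218 genes, and none of 17 members in Taf5, beside 104 and 116 of 11588 genes. The strand setting of the read counting is not given in the sources used here, so reads of overlapping antisense pairs such as Airn and Igf2r cannot be told apart.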

How the data were processed

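RNA of single embryos was sequenced as paired-end libraries. The submitters' processing notes name the build GRCm39 and the tools STAR 2.7.6a, DESeq2 1.36.0, Trimmomatic 0.39, R 4.2.1 and FastQC 0.11.9. How reads were counted is not given in the sources used here. FPKM and comparisons were supplied: the authors deposited FPKM values, normalized separately in each of the 5 line and stage sets, and a table of log2 fold changes with p-values and mean normalized counts.

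FPKM were tested as log2(FPKM + 1) with limma 3.58.1 in R 4.3.3 (trend, robust), all genotypes of a set in 1 fit, keeping genes whose FPKM reached 1 in a number of libraries equal to the size of the smallest group. Benjamini-Hochberg adjustment was over all tested genes. Fold changes on this scale understate changes of low genes. Whole reads were recovered from FPKM for 98.96 to 99.98% of values up to 500 reads (tolerance 0.05 reads), and limma-voom on them was an alternative. It called 0 genes in Taf5 MUT, 186 in Taf12 MUT at E3.5, 5078 in outgrowths, 1 in Taf13 MUT at E3.5 and 2348 at E6.5. Floors of 3 reads cover counting error only. Levels were compared within a gene. The limma fits were tested on simulated data.

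The members and lists were chosen with earlier results of these data known. Named were members called, the 3 with the smallest p per MUT comparison, non-overlapping ones at p under 0.01, and a fixed set of well-known imprinted genes. The promoter motif window was first -45 to -6, and a narrower one was tried after the matches were seen.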

Additional observations from a re-analysis of the deposited data

Results flagged for a closer look

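Among 212 combinations of a named member and a group of 4 to 10 embryos, 31 (14.6%) had 1 embryo far from the rest. The threshold is set so that chance passes about 1 in 20 groups of normally spread values, which groups with libraries at 0 are not. In outgrowths these were H19 in MUT 2 (443 FPKM), Dlk1 in MUT 1 (1.47), Zdbf2 in MUT 2 (1.26), Plagl1 in MUT 4 (15.1) and in WT 4 (4.69), Slc38a4 in MUT 4 (2359), Dio3 in WT 4 (8.24) and Zrsr1 in WT 2 (4.201). At E6.5 they were Snrpn in HET 2 (212 FPKM), and Dio3 (4.35) and Plagl1 (4.62) in WT 3, the embryo richest in decidual reads among the WT.

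In Taf5 blastocysts they were Igf2 in MUT 3 (1.76 FPKM), Osbpl5 in MUT 4 (27.8), and Peg10 (118) and Sfmbt2 (18.9) in MUT 2. In Taf12 blastocysts they were H19 (9.68 FPKM) in HET 1, Dio3 (3.91) and Gnas (25.4) in HET 2, Grb10 in HET 3 (17.2), H19 (1.61) and Gab1 (40.5) in WT 1, Mest in WT 2 (658) and Zdbf2 in WT 3 (13.2). In Taf13 blastocysts they were Dio3 in HET 2 (5.53 FPKM), Osbpl5 (9.86) and Grb10 (1.55) in HET 3, Mest (544) and Rian (1.41) in HET 4, Cdkn1c in WT 1 (1.00), H19 in WT 2 (3.76) and Plagl1 in WT 4 (34.05).

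The MUT effect differed between stages, by a limma contrast of effects, for Snrpn (log2 1.62) in Taf12, and for Osbpl5 (6.76), Snrpn (-3.26) and Gnas (1.96) in Taf13. The Osbpl5 value draws mostly on blastocysts, where every MUT library was at 0, and neither of its effects was called alone. Phlda2 in Taf12 (3.69) and Dio3 in Taf13 (3.91) passed the same contrast, but Phlda2 failed the filter at E3.5 and Dio3 was at 0 in every MUT and WT blastocyst, so these values restate the later effect and cannot show a difference between stages.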

How the results depend on the processing

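No called direction reversed under any alternative. The number of members called in Taf12 MUT at E3.5, 1 as reported, was 0 with no filter, quantile normalization, limma-voom or only the 2 groups compared, and 2 with WT and HET together. At E6.5, 7 as reported, it was 12 with limma-voom, 13 with WT and HET together, and, by alternatives chosen after seeing the data, 11 without the decidua-rich controls and 13 with the decidual covariate. Calls over all genes, 1880 as reported, were 2348, 3348, 2576 and 4645 in the same order. With only the 2 groups compared at E6.5, they fell to 474 of 13229 genes. Of 8 relations called among E6.5 controls, 0 passed without the 2 embryos farthest from the median of each x measure and 1 with Spearman's rho, chosen after seeing the data. Leaving out 1 library at a time gave 0 to 2 members in Taf12 MUT at E3.5, 12 to 17 in outgrowths, 0 to 1 in Taf13 MUT at E3.5 and 5 (without MUT 1) to 11 (without MUT 2) at E6.5. It gave 0 in Taf5 MUT and in the HET comparisons, where at E6.5 only WT and MUT libraries were left out, not the 9 HET.

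Libraries with the same replicate number did not deviate together in every pair (correlations from -0.436 to 0.383), so the numbers were not taken as pairs. With a replicate block, 0 members were called in Taf12 MUT at E3.5 and 4 in Taf13 MUT at E6.5, where calls over all genes were 584. The limma-voom fit moved the median log2 of all genes to -0.149 in outgrowths and 0.175 at E6.5. In the difference of Taf13 effects, Dio3 was not called with a pseudocount of 0.1 (limma adjusted p = 0.188). The causes were not tested.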
